A study of Bos taurus with 8 samples.

Results

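Complement is a cascade of plasma and cell-surface proteins that tags and lyses microbes and damaged cells. The classical arm starts with the C1 complex, in which the proteases C1r and C1s are activated in turn, the alternative arm is amplified by factor B, and both meet at C3, whose cleavage leads to the terminal components that form the membrane attack pore. Host cells limit the cascade with soluble inhibitors such as C1 inhibitor and factor I and with surface regulators such as CD46 and CD59. Most plasma complement is made by the liver, and fibroblast-like stromal cells, adipocytes and macrophages also make several components locally.

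A list of 9 genes for complement components and regulators was followed in RNA-seq counts from 8 bovine preadipocyte clones: *C1R*, *C1S*, *C3*, *CFB*, *C7*, *SERPING1*, *CFI*, *CD46* and *CD59*. They were matched by gene symbol, and 8 of the 9 were found among the 18871 named genes of the count table. *CFI* was not analysed here. All 8 passed the filter on low counts, a total of at least 20 over the 8 clones.

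The 4 IMF clones (IMF1 to IMF4) and the 4 SF clones (SF1 to SF4) were each grown from 1 stromal vascular fraction cell of intramuscular fat, taken from longissimus muscle, or of subcutaneous fat. The donors were adult male Angus-cross steers without an experimental treatment, and the study finished all of them on a high-energy diet before slaughter. They were 5 in number per the labels, whereas the study's methods give a larger number. By the study, the 4 clones of a depot came from different fraction samples, so some of these steers gave clones of both depots. Which IMF and SF clones share a steer is not stated, and the main test treated all clones as independent. Each library is a cell line of 1 clone, chosen by the study for fast growth, adipogenic potential and fibroblast-like shape, and expanded in medium with fetal bovine serum. The methods place RNA collection in growing cells before adipogenic induction, whereas the series description places induction before sequencing.

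The depth ran from 19654917 to 29308882 counts on named genes per clone, and 18339 genes passed the filter. Levels between clones are given as CPM, the count scaled to the TMM-normalized library size, and levels between genes as TPM, which also divides by gene length. A level of 3 counts corresponded to between 0.0981 and 0.165 CPM, a floor that covers counting error only. Of 9 preadipocyte and fibroblast markers, 0 were higher and 3 were lower in IMF by the threshold given below (*COL1A1*, *PPARG* and *THY1*), and their levels summed to 13213 to 14060 CPM in IMF and 29673 to 31853 CPM in SF. Most of that sum was *COL1A1*, at a mean CPM of 12371 in IMF and 30088 in SF, while *PDGFRA* had means of 184 and 131. The progenitor marker *DLK1* had no counts in IMF2 and 4 in IMF3, whereas each of the other 8 markers had counts in every clone. All 8 counts of *DLK1* were even numbers, and the uncertainty given below for *C7* and other such genes applies to it as well. Muscle lineage markers were past the threshold and higher in IMF in 7 of 7 cases, with a summed level of 577 to 681 CPM in IMF and 0.701 to 22.5 CPM in SF. Endothelial markers were higher in 7 of 8 cases, with a summed level of 145 to 189 CPM in IMF and 27.6 to 38.1 CPM in SF. *MYOD1*, *MYOG*, *KDR* and *EMCN* had no counts in any SF clone. Macrophage and leukocyte markers (6 of 8 analysed, 1 higher in IMF, *CD14*, and 0 lower) summed to 25.9 to 37.8 CPM in IMF and 37.8 to 66.4 CPM in SF. In that sum *PTPRC* and *TYROBP* had the higher mean in SF, and the other 4 markers had it in IMF. Hepatocyte markers (3 of 7 analysed) summed to 3.04 to 7.19 CPM in IMF and 4.34 to 10.7 CPM in SF. Adipocyte markers (3 of 5 analysed, 1 higher in IMF, *FABP4*, and 0 lower) summed to 11.5 to 14.2 CPM in IMF and 3.50 to 5.01 CPM in SF. *FABP4* alone had means of 9.63 and 0.178 CPM, and *PLIN1* had 2.84 and 3.62 CPM. Any part of cells or programs of these kinds in the complement differences was not tested.

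*SERPING1*, *CFB* and *C3* were higher in the IMF clones, by 17.7-fold, 5.70-fold and 5.58-fold, and each had every IMF clone above every SF clone. *C1R*, *C1S*, *C7* and *CD46* did not pass the test. *CD59* was lower in IMF, by 1.49-fold, and was under the fold-change threshold. In RNA from whole cultures, fewer expressing cells and less RNA per cell cannot be told apart. The threshold was an adjusted p under 0.05 together with a log2 fold change of 1 or more in either direction, from edgeR's two-sided quasi-likelihood test with Benjamini-Hochberg adjustment over all genes tested. Every adjusted p below comes from that fit unless an alternative is named, SE is the standard error on the log2 scale, and a log2 fold change is the IMF level minus the SF level. By that rule 3 of the 8 genes were past the threshold, 3 higher and 0 lower in IMF. Over all genes tested 8.82% were past it, 4.78% higher and 4.04% lower. With the adjusted p alone, 4 of the 8 passed, against 25.8% of all genes, and the lower gene was *CD59*. The median log2 fold change was 0.64 over the 8 genes and -0.03 over all genes tested. Groups without overlap were found for 3 of the 8 genes and for 32.1% of all genes.

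**Figure D1:**
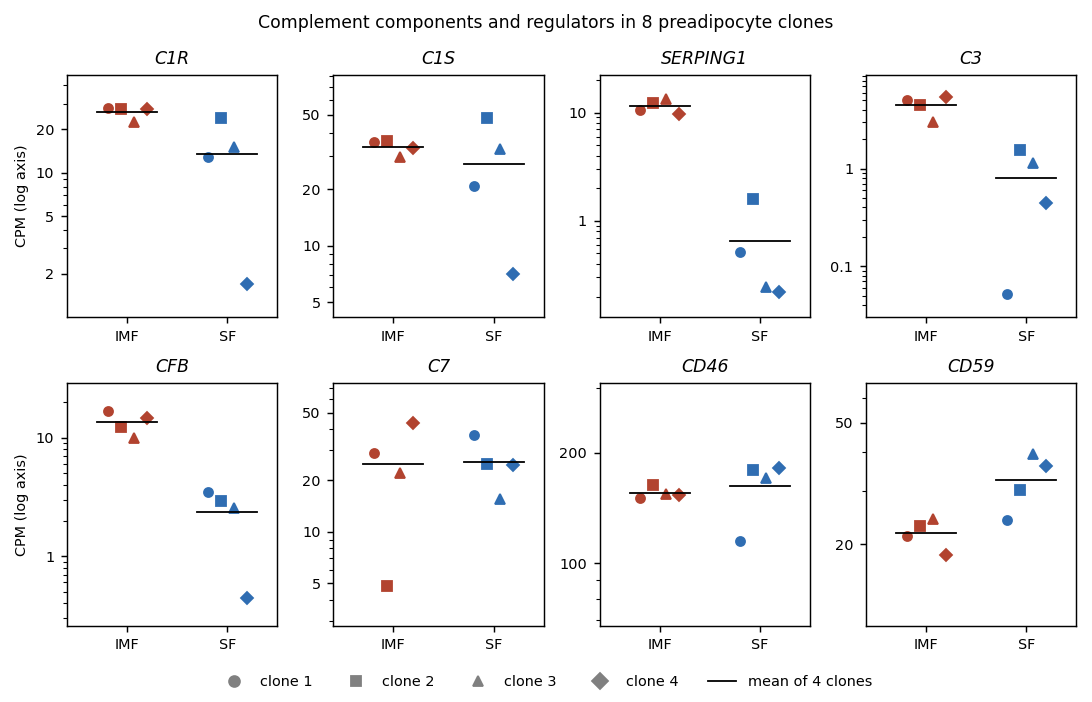
Level of each complement component or regulator in the 4 IMF and 4 SF clones, in CPM on log axes that differ between panels. Each point is 1 clone, marked by its number, and the line is the mean of the 4 clones. *SERPING1*, *C3* and *CFB* show no overlap between groups, while SF4 lies lowest of the SF clones for *C1R* and *C1S* and IMF2 lies lowest of all for *C7*.

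*C1R* and *C1S* encode the serine proteases of the C1 complex and lie side by side on chromosome 5 of ARS-UCD2.0, *C1R* at 103376575 to 103387577 and *C1S* at 103407687 to 103418871, with 20109 bases between them. *C1R* had 28.0, 27.5, 22.3 and 27.3 CPM in IMF1 to IMF4 and 12.9, 23.8, 15.1 and 1.71 CPM in SF1 to SF4. *C1S* had 35.9, 36.3, 29.6 and 33.2 CPM in the IMF clones and 20.7, 48.1, 32.9 and 7.11 CPM in the SF clones. In both genes the IMF clones lay close together, while SF2 was the highest and SF4 the lowest of the SF clones. For *C1R* the log2 fold change was 0.97 (SE 0.56, 95% interval -0.32 to 2.26, adjusted p = 0.249), and SF2 lay above IMF3. That of *C1S* was 0.31 (SE 0.46, 95% interval -0.74 to 1.36, adjusted p = 0.669), and SF2 lay above all 4 IMF clones. Without SF4 the values became 0.61 for *C1R* and -0.01 for *C1S*, and without SF2 they became 1.40 and 0.73. The coefficient of variation was 10.1% for *C1R* and 9.17% for *C1S* among the IMF clones, and 68.0% and 64.2% among the SF clones.

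The ratio of the 2 proteases was chosen after the values had been seen and is given as a description, with no test. The TPM of *C1S* over that of *C1R* was 1.25, 1.29, 1.29 and 1.19 in the IMF clones and 1.57, 1.97, 2.12 and 4.06 in the SF clones. Every SF clone lay above every IMF clone in this ratio.

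*SERPING1* (chromosome 15, 80850218 to 80863386) encodes C1 inhibitor, the serpin that inactivates C1r and C1s. Its counts were 222, 373, 291 and 205 in IMF1 to IMF4 and 10, 32, 6 and 4 in SF1 to SF4. In CPM these were 10.7, 12.2, 13.2 and 9.76 in IMF and 0.513, 1.60, 0.243 and 0.220 in SF, so that the lowest IMF clone lay far above the highest SF clone. On the log2 scale *SERPING1* was higher by 4.15 (SE 0.56, adjusted p = 0.00112), and by 5.12 when SF2, the SF clone with the most counts, was left out. It was past the threshold in all 17 alternatives tried, with an adjusted p of up to 0.00670.

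The inhibitor was set against its target proteases in the same way, again as a description. The TPM of *SERPING1* over the summed TPM of *C1R* and *C1S* was 0.233, 0.268, 0.356 and 0.226 in the IMF clones. In the SF clones it was 0.0214, 0.0313, 0.00713 and 0.0352. The groups did not overlap, as they did not for *SERPING1* itself. SF2 had *C1R* and *C1S* at levels near or above those of the IMF clones and 1.45 TPM of *SERPING1*, against 7.72 to 11.9 TPM in IMF.

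**Figure D2:**
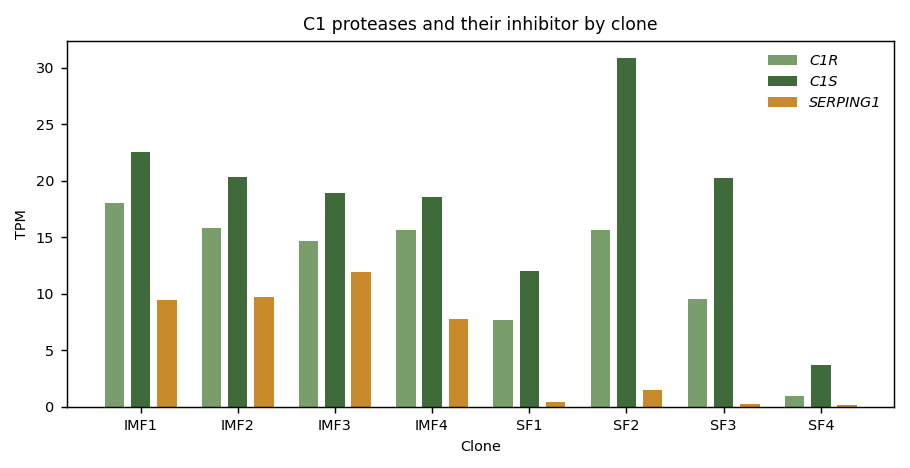
TPM of the C1 proteases *C1R* and *C1S* and of their inhibitor *SERPING1* in each clone, as bars from 0. *SERPING1* stands at 7.72 to 11.9 TPM beside its targets in the IMF clones and at 0.162 to 1.45 TPM in the SF clones, while SF2 has the tallest *C1S* bar of all (30.8 TPM) and a *C1R* bar (15.7 TPM) within the IMF range.

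*C3* (chromosome 7, 17774607 to 17810616) encodes the component on which all arms of the cascade converge. The IMF clones had 105, 138, 67 and 114 counts and the SF clones 1, 31, 28 and 8. The levels were 5.04, 4.51, 3.04 and 5.43 CPM in IMF and 0.0513, 1.55, 1.14 and 0.441 CPM in SF, with SF1 at a count under the floor. This gave a log2 fold change of 2.48 (SE 0.67, adjusted p = 0.0273). The call was lost in 5 of its 17 alternatives, over which the adjusted p ranged from 0.00179 to 0.0675. Among the 5 were the omission of IMF1 (adjusted p = 0.0586), IMF2 (0.0575), IMF4 (0.0634) and SF4 (0.0675). In all 17 alternatives *C3* was higher in IMF, by 2.10 to 3.05 on the log2 scale.

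*CFB* (chromosome 23, 27415351 to 27421377) encodes factor B, which supplies the protease of the alternative pathway C3 convertase. There were 353, 375, 219 and 310 counts in IMF and 68, 58, 63 and 8 in SF. These were 16.9, 12.3, 9.93 and 14.8 CPM in IMF and 3.49, 2.90, 2.56 and 0.441 CPM in SF, and SF4 was again the lowest. With a log2 fold change of 2.51 (SE 0.48, adjusted p = 0.00623), the gene was past the threshold in all 17 alternatives (adjusted p up to 0.0231). *C2*, the paralog that serves the classical and lectin arms, lies 431 bases further along the chromosome. It had 5.52, 5.10, 4.31 and 4.95 CPM in IMF and 1.59, 2.95, 3.69 and 1.05 CPM in SF. Its groups did not overlap either, but at 1.09 on the log2 scale (SE 0.36, adjusted p = 0.0590) it missed the adjusted p threshold.

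*C7* (chromosome 20, 33535885 to 33592915) encodes a terminal component of the membrane attack complex. It had 29.2, 4.77, 22.2 and 43.8 CPM in the IMF clones and 37.0, 25.0, 15.6 and 24.8 CPM in the SF clones. The groups overlapped throughout, and the lowest and the highest of the 8 values were both in IMF clones. Its log2 fold change was -0.04 (SE 0.55, 95% interval -1.30 to 1.23, adjusted p = 0.971). That sign changed with the scaling and with the clones included. All 8 counts of *C7* were even numbers, as were those of 1577 other genes tested (8.61% of all with *C7* itself). Over those other genes the median deviation of a clone from the gene's own mean was -0.67 in IMF2 on the log2(CPM + 0.1) scale. Over the remaining genes it was 0.04 for IMF2, so that by this median IMF2 was low in that class of genes, as it was in *C7*. The summed level of the class was 7083 CPM in IMF2, 7382 to 8388 CPM in the other IMF clones and 6533 to 8242 CPM in SF. IMF2 was the lowest IMF clone for 44.4% of the class. What part the low median of IMF2 has in the *C7* value was not tested. Whether fragments of these genes were counted more than once is not given in the sources used here, and the level of *C7* and its place by TPM among the other genes carry that uncertainty.

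*CD46* (chromosome 16, 75582021 to 75621087), a cofactor for the cleavage of C3b and C4b, had 150.2, 163, 154 and 154 CPM in the IMF clones and 115, 179.6, 171 and 182 CPM in the SF clones. SF1 lay below every other clone, while the other three SF clones lay above all IMF clones. Its log2 fold change was -0.06 (SE 0.14, 95% interval -0.39 to 0.27, adjusted p = 0.799), or 0.09 with scaling by total counts alone. That scaling moved the median of all genes from -0.03 to 0.12.

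*CD59* (chromosome 15, 64345778 to 64370139), the anchored protein that blocks assembly of the membrane attack pore, had 21.3, 23.1, 24.2 and 18.5 CPM in the IMF clones and 24.0, 30.2, 39.5 and 36.1 CPM in the SF clones. All SF clones except SF1 lay above all IMF clones, and SF1 lay just below IMF3. The fitted difference was -0.58 on the log2 scale (SE 0.16, adjusted p = 0.0299), short of the fold-change threshold. Its adjusted p ranged from 0.00452 to 0.104 over the alternatives, with the highest under scaling by total counts alone.

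In TPM, *CD46* was the highest of the 8 genes in both groups, at 56.8 ± 3.21 in IMF and 58.6 ± 12.97 in SF (SD, n = 4), above 91.5% and 91.9% of the genes tested. In IMF it was followed by *C1S* (20.1 TPM), *CD59* (19.0), *C1R* (16.0), *C7* (11.4), *SERPING1* (9.69) and *CFB* (9.17), and *C3* was the lowest at 1.46 TPM, above 29.5% of those genes. Between *C1S* and *CFB* the ranges of neighbours in that order overlapped, so the order there was within the spread of the clones, whereas *CD46* and *C3* stood clear of their neighbours in every IMF clone. In SF the order was *CD46*, *CD59* (27.8 TPM), *C1S* (16.7), *C7* (11.5), *C1R* (8.44), *CFB* (1.62), *SERPING1* (0.562) and *C3* (0.268), and only *CD46* stood clear of its neighbour by range. *CFB* nonetheless lay above *SERPING1*, and *C1R* above *CFB*, in each of the 4 SF clones. The summed TPM of the 8 genes was 143.7 ± 10.1 in IMF and 125.5 ± 30.8 in SF (SD, n = 4), a difference within the spread (two-sided exact permutation test, p = 0.343).

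The SF clones varied more among themselves. The coefficient of variation was higher among SF than among IMF clones for 7 of the 8 genes, all except *C7*, with medians of 60.4% and 12.4%. Over 14706 genes tested, those with at least 1 CPM in IMF and 0.5 CPM in SF on average, it was higher in SF for 71.1%, with medians of 16.4% and 8.16%. Among the SF clones, SF4 was the lowest for *C1R*, *C1S*, *CFB* and *SERPING1*, and SF1 for *C3*, *CD46* and *CD59*. Over all genes tested, SF4 was the lowest SF clone for 21.7% and SF1 for 32.4%. *C3* and *CFB* were not ordered alike, since SF1 was the lowest for *C3* and the highest for *CFB*.

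**Figure D3:**
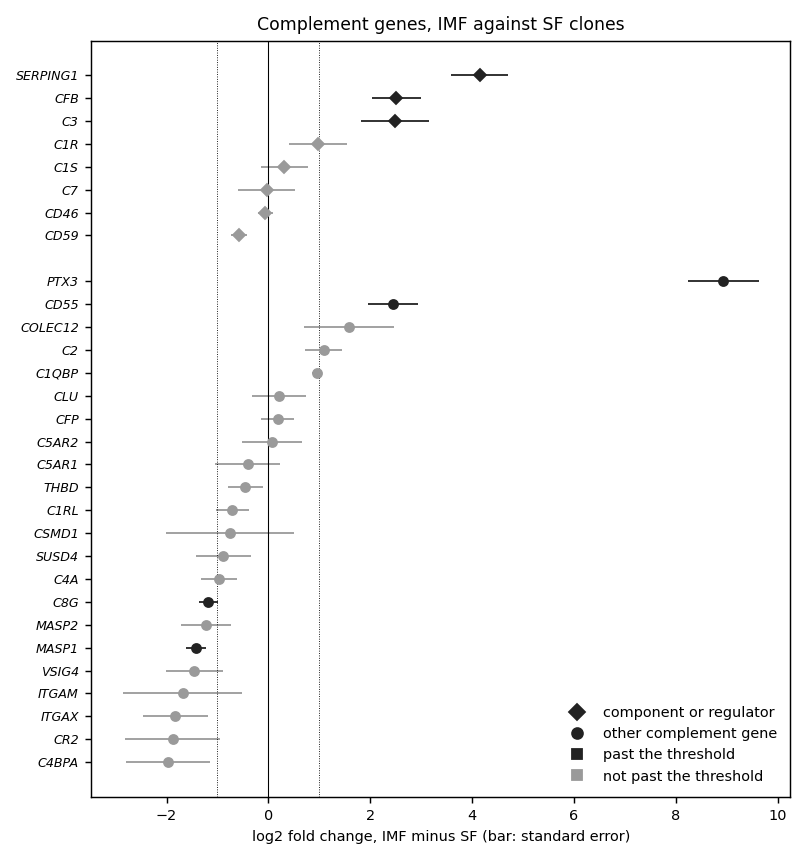
Log2 fold change, IMF minus SF, of the 8 complement components and regulators (diamonds) and of other complement pathway genes (circles), with bars of 1 standard error. Dark symbols were past the threshold of an adjusted p under 0.05 and a log2 fold change of 1 in size, the latter drawn as dotted lines. *PTX3* at 8.92 and *SERPING1* at 4.15 lie farthest to the right, and *C8G* and *MASP1* are the dark symbols left of 0.

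Of 43 other complement pathway genes listed, 23 were analysed and all 23 passed the filter on low counts. By the threshold above, 2 were higher in IMF (*PTX3* and *CD55*), 2 were lower (*MASP1* and *C8G*) and 19 did not pass, a share of 17.4% past the threshold, against 8.82% of all genes tested. The 4 genes belong to different steps, 2 to initiation, 1 to the terminal components and 1 to the membrane regulators. None of the 7 receptors or the 3 fluid-phase regulators analysed was past it, while 11 of the 23 genes had an unadjusted p under 0.05, against 37.9% of all genes tested. DESeq2 called 8 of the 23, against 10.9% of all genes. The subunits of C1q were not analysed here. The median log2 fold change was -0.75 over the 23 genes and -0.03 over all genes.

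*PTX3* encodes a long pentraxin, a soluble pattern recognition protein that binds C1q. It stood at 3465, 4428, 2910 and 3141 counts in IMF and at 2, 2, 0 and 20 counts in SF. The levels were 166, 145, 132 and 149 CPM in IMF and at most 1.10 CPM in SF, in SF4. *PTX3* was higher in IMF by 8.92 on the log2 scale (SE 0.70, adjusted p = 7.53e-05). That value rests on SF4, since the other SF clones had counts under the floor of 3 and without SF4 the fitted value is no bound. *CD55*, which accelerates the decay of C3 convertases at the cell surface, had 16.6, 18.4, 15.6 and 17.5 CPM in IMF and 2.00, 2.05, 7.02 and 1.16 CPM in SF. All IMF clones lay above SF3, the highest SF clone, and the log2 fold change was 2.45 (SE 0.49, adjusted p = 0.00757), or 3.25 without SF3. Of the 3 membrane regulators *CD46*, *CD55* and *CD59*, *CD55* was thus higher in IMF, while *CD46* and *CD59* had log2 fold changes of -0.06 and -0.58.

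*MASP1* encodes a protease that starts the lectin arm, parallel to C1r and C1s. It had 3.36, 3.92, 3.26 and 4.85 CPM in the IMF clones and 11.4, 12.4, 9.46 and 7.82 CPM in the SF clones. The groups did not overlap, and the log2 fold change was -1.41 (SE 0.19, adjusted p = 0.00124). *C8G*, the small subunit of the terminal component C8, had 4.70, 5.20, 4.17 and 4.52 CPM in IMF and 13.7, 11.7, 7.51 and 9.31 CPM in SF. Its groups did not overlap either (log2 fold change -1.18, SE 0.19, adjusted p = 0.00300). The other chains of C8 were not analysed here.

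**Figure D4:**
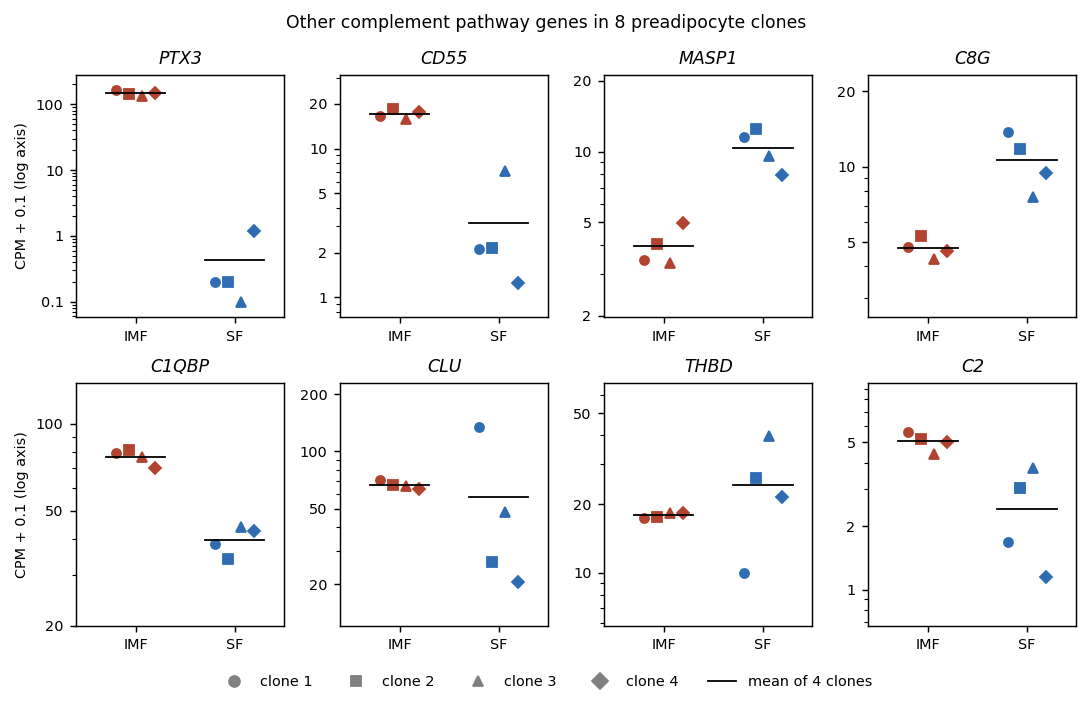
Level of other complement pathway genes in the 4 IMF and 4 SF clones, as CPM + 0.1 on log axes that differ between panels, with 1 point per clone and the mean as a line. *PTX3* and *CD55* lie higher and *MASP1* and *C8G* lower in IMF without overlap, and the SF clones spread from 20.6 to 134 CPM in *CLU*.

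Among the remaining pathway genes with the highest TPM were *C1QBP*, *CLU*, *THBD* and *C2*. *C1QBP*, a mostly mitochondrial protein that also binds the globular heads of C1q, had 79.4, 81.1, 76.7 and 70.01 CPM in the IMF clones and 38.3, 33.9, 43.7 and 42.5 CPM in the SF clones. The groups did not overlap, and its log2 fold change of 0.96 (SE 0.10, adjusted p = 0.000266) fell just short of the fold-change threshold. *CLU*, the chaperone clusterin that also binds the terminal complex, had 63.2 to 70.7 CPM in IMF and 134, 26.2, 48.0 and 20.6 CPM in SF (adjusted p = 0.806). *THBD*, thrombomodulin, had 17.3 to 18.2 CPM in IMF and 9.85, 26.0, 39.7 and 21.4 CPM in SF (adjusted p = 0.379). In both *CLU* and *THBD* every IMF clone lay inside the range of the SF clones.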

How the data were processed

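The authors trimmed reads with Trimmomatic 0.39 and counted them on ARS-UCD2.0 genes with featureCounts 2.0.2. The methods name HISAT2 as aligner and the labels STAR 2.7.11a, and the methods call the libraries non-stranded whereas the labels describe dUTP second strands, so reads of overlapping genes may be shared. *C1R*, *C3*, *CD59*, *PTX3* and *MASP1* each overlap another annotated gene, not analysed here. The deposited counts are raw, 1 column per clone. The authors also deposited group means as a signal and their DESeq2 result (log2 fold changes, p-values, and a standard error and statistic as scores), none of which was used.

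The edgeR package (4.0.16, under R 4.3.3) was used for the main test: TMM scaling, quasi-likelihood tests (two-sided) and adjustment by Benjamini-Hochberg across 18339 genes whose counts summed to 20 or more. The row without a gene name (up to 0.0209% of counts) was left out. TPM used the deposited gene length. Fold changes used a prior count of 0.125, and 95% intervals the fit's degrees of freedom. DESeq2 1.42.0, limma-voom (limma 3.58.1), RLE factors, total counts, other filters, no fold-change threshold, a prior count of 2, clone number as a blocking factor and omission of single clones were alternatives. On simulated counts with 200 genes changed by 2 on the log2 scale, edgeR recovered 179 and made 12 false calls among 18057 genes. DESeq2 recovered 192 and made 59 false calls. The changed genes were drawn only from those above a minimum mean count. Both groups were given the same dispersion, whereas the SF clones varied more in the data, so these rates need not hold for genes with few SF counts. No library was a duplicate of another. P-values measure the spread between these clones.

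The genes and lists were chosen with earlier results of these data known. Named were the 9 listed components and regulators, the pathway genes past the threshold and the 5 others with the highest TPM, inducers past the threshold, and the 2 genes nearest in profile to each gene of at least 10 CPM. Some genes named by this rule are not reported here. Coordinates come from RefSeq genes on ARS-UCD2.0.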

Additional observations from a re-analysis of the deposited data

Results flagged for a closer look

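In groups of 4 clones, a clone stood apart where its gap to the nearest other exceeded Dixon's 95% critical value for the group's range, which chance gives in about 1 in 20 groups. This held in 6 of the 62 groups examined (9.68%), over 31 complement genes in IMF and in SF. *C1R* in IMF3, at 22.3 CPM, lay below the other IMF clones (27.3 to 28.0 CPM). *CD46* in SF1, at 115 CPM, lay below the other SF clones (171 to 182 CPM). *PTX3* in SF4, at 1.10 CPM, lay above SF clones of 0.103 CPM or less. *C1RL*, a relative of *C1R*, had 5.54 CPM in SF1 and 2.15 to 2.60 CPM in the other SF clones. *C4BPA*, a chain of the C4b-binding protein, had 3.39 CPM in SF1 and 0.200 to 0.730 CPM in the other SF clones. *CD55* in SF3, at 7.02 CPM, lay above SF clones of 1.16 to 2.05 CPM. SF1 was thus the clone apart in 3 of the 6 cases.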

How the results depend on the processing

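The count of 3 components and regulators past the threshold became 4 with no fold-change threshold, 2 under a block for clone number, and 2 to 3 when 1 clone was left out. It was 3 in the other alternatives. The count of 4 other pathway genes became 8 with DESeq2, 6 with limma-voom, 5 with total counts alone and 5 with no fold-change threshold. It was 4 with the block and in the other alternatives with all clones, ranged from 4 to 6 without 1 clone, and was lower in none. All genes past the threshold numbered 1618 (877 higher and 741 lower in IMF, against 1078 and 539 with total counts alone), 4724 without the fold-change threshold and 1489 with the block, and from 1332 to 1643 without 1 clone. With the adjusted p alone, *CD59* passed. The block ended the call of *C3* (adjusted p = 0.0642). Deviations of same-numbered clones correlated at -0.00933 to 0.139 over 4 pairs (mean 0.0548), against -0.105 to 0.109 over 12 pairs of different number (mean -0.0184). The mean was thus higher for same-numbered pairs, but the ranges overlapped. The numbers were not used to pair the clones in the main test, and whether same-numbered clones share a steer is not stated. The sign of *C7* turned with total counts alone (0.11) and ranged from -0.46 to 0.29 without 1 clone, that of *CD46* turned with total counts alone (0.088) and ranged from -0.19 to 0.00042, and that of *C1S* ranged from -0.0057 to 0.73. Without 1 clone, the signs turned for *C7* when IMF2 or SF1 and for *CD46* and *C1S* when SF4 was left out. None of these had passed the test, and the cause was not tested. *SERPING1*, *CFB*, *PTX3*, *CD55*, *MASP1* and *C8G* kept direction and call in all 17 alternatives. Counts of 1 to 10 in SF clones limit the precision of *C3*, *CFB* and *SERPING1* there.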

Other observations

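Among 11 genes for cytokines and transcription factors known to induce complement genes in other cells, 8 were analysed, 2 were higher in IMF, 0 were lower and 6 did not pass the threshold (edgeR's quasi-likelihood test, where 5 of the 8 had an unadjusted p under 0.05, against 37.9% of all genes tested, 8.82% of all genes were past the threshold, and *CEBPD* and *IL6* were the inducers past it). *CEBPD*, a transcription factor of the acute phase response, had 254, 247, 222 and 234 CPM in the IMF clones and 69.3, 137, 107 and 93.6 CPM in the SF clones. Its groups did not overlap (log2 fold change 1.23, SE 0.19, adjusted p = 0.00209). *IL6*, the cytokine that drives that response in the liver, had 45, 36, 22 and 22 counts in IMF and 6, 4, 5 and 2 counts in SF, a log2 fold change of 2.67 (SE 0.46, adjusted p = 0.00392).

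Profiles over the 8 clones were compared as log2 CPM centred on each gene's mean, among genes of at least 10 CPM, by their root-mean-square difference. This is a description with no test. Of 8730 genes compared, the nearest to *C1R* were *SHB* (0.51) and then its genomic neighbour *C1S* (0.55), where *C1R* itself varied with an SD of 1.25. The nearest to *C1S* were *HEBP2* (0.39) and *REV3L* (0.41). The nearest to *C7* were *SERPINB2* (0.24) and *FA2H* (0.25). *CD46* lay nearest to *DEGS1* (0.04) and *UGGT1* (0.04), and *CD59* to *SLC33A1* (0.05) and *FAM57A* (0.10). The SD of the gene itself was 0.79 for *C1S*, 0.92 for *C7*, 0.20 for *CD46* and 0.35 for *CD59*. Differences are therefore not comparable between genes, and small ones are easily reached for genes that vary little.

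Besides *C7*, the pathway genes *C4BPA*, *CSMD1* and *C5AR1* had only even numbers among their 8 counts, which was so in 8.61% of the genes tested.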
